A study of Mus musculus with 8 samples.

Results

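Keratins, the proteins of the desmosome and the proteins of the cornified layer were examined in cultured skin fibroblasts, as a measure of epithelial transcripts in cells that were grown as fibroblasts. They were chosen by symbol on an Illumina MouseRef-8 v2.0 BeadArray, a 1-colour array on which a bead type, called a probe, reports 1 transcript region. All probes whose symbol was Krt followed by a number, a desmocollin, desmoglein or plakophilin symbol, or Dsp, Jup, Cdsn, Lor, Ivl or Flg were taken. This gave 74 probes of 58 genes, of 25697 probes of 18138 genes on the array. Of the 58 genes, 42 were keratins with 47 probes and 16 were desmosomal or cornified-layer genes with 27 probes.

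Each of the 8 arrays held RNA from the primary, early-passage skin fibroblasts of 1 mouse aged 12 months. The 4 Nd2-mutant mice (28 and 32, male; 34 and 35, female) were of the conplastic strain C57BL/6J-mtALR/LtJ, and the 4 control mice (16 and 17, male; 15 and 37, female) were of the conplastic strain C57BL/6J-mtAKR/J. A conplastic mouse has the nuclear genome of one strain, here C57BL/6J in both groups, and the mitochondrial genome of another, so both groups carried a donor mitochondrial genome, and that of the Nd2-mutant group carried a mutation in Nd2, which encodes a subunit of respiratory complex I. The comparison addressed whether this mutation goes with a change in the expression of these genes. The cells were dissociated from whole skin and were not sorted, and with RNA of a whole culture, fewer cells of a type and less RNA per cell cannot be told apart.

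Keratins are the intermediate filament proteins of epithelial cells and polymerise as pairs of a type I and a type II chain. In the epidermis, Krt5 and Krt14 form the filaments of basal keratinocytes, Krt1 and Krt10 those of the layers above, and Krt6, Krt16 and Krt17 those of hair follicle sheaths and of wounded epidermis. Krt7, Krt8, Krt18, Krt19 and Krt20 belong to simple, single-layered epithelia. Desmosomes anchor these filaments at cell contacts through cadherins (desmogleins and desmocollins), the plaque proteins plakoglobin (Jup) and plakophilins, and desmoplakin (Dsp). Fibroblasts are mesenchymal cells whose main intermediate filament is vimentin.

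For reference, promoter sequence is given for the tested keratins and for corneodesmosin where RefSeq provided a window, since these genes carry the comparison between the strains. Of the 21 genes detected on any array, 13 had a window, and the tested genes Krt17, Krt19 and Pkp2 had none. Each line holds the 100 bases before an annotated start, 5′ to 3′ on the gene's own strand (RefSeq, GRCm38.p6). Capitals mark the TATA-like letters ATAAANG, searched on both strands together with the AP-1-like letters TGANTCA. The first motif occurred in 5.16% and the second in 2.73% of the 32851 windows of this length.
Krt14, minus strand, chr11:100206031-100206130: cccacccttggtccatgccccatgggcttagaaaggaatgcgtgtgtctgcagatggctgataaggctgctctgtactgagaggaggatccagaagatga
Krt10, minus strand, chr11:99389365-99389464: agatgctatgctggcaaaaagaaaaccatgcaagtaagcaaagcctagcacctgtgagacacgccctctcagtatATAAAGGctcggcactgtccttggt
Krt7, plus strand, chr15:101412303-101412402: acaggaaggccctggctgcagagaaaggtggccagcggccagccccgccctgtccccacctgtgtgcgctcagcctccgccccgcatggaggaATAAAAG
Cdsn, start 1, plus strand, chr17:35543001-35543100: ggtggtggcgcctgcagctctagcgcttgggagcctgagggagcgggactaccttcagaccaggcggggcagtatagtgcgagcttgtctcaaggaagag
Cdsn, start 2, plus strand, chr17:35552028-35552127: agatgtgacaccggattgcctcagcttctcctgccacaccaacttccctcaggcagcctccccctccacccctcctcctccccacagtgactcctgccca

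The TATA-like letters lay 25 bases before the start in Krt10 and 7 bases before it in Krt7, and TGANTCA was in none of the 5 windows. A match is a description of the letters only.

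The cultures carried the markers of fibroblasts on all 8 arrays. Of 13 fibroblast probes on the array, 11 were detected on all 8 arrays, and their summed intensity ranged from 37138 to 43221 in Nd2-mutant and from 30734 to 44920 in control cultures. Intensity here is the authors' quantile-normalized value on the linear scale, and detection required a detection p under 0.01. Each array detected between 10973 and 11350 probes in Nd2-mutant and between 10663 and 10837 in control cultures, so these ranges did not overlap. The array of control mouse 15 stood apart: its correlation with the remaining arrays averaged 0.934, against 0.963 to 0.974 for each of those. It also had the highest summed endothelial markers (874, against 158 to 468 elsewhere), and the array of Nd2-mutant mouse 35 had the highest summed macrophage markers (1843, against 257 to 615 elsewhere).

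Most of the keratin, desmosomal and cornified-layer genes were not detected. Of the 74 probes, 23 probes of 21 genes were detected on at least 1 array (31.1%, against 50.3% of all probes), and 6 probes of 5 genes on all 8 arrays (8.11%, against 36.6%). These 5 genes were Krt7, Krt10, Krt14, Krt17 and Pkp2. No array detected the hair shaft keratins Krt31, Krt32, Krt34, Krt35, Krt36, Krt39, Krt40, Krt83, Krt84 and Krt86, the inner root sheath keratins Krt25, Krt26, Krt27, Krt71, Krt73 and Krt74, or the mucosal and corneal keratins Krt4, Krt12, Krt13 and Krt24. The same was found for Krt2, Krt9, Krt23, Krt42, Krt77, Krt79, Krt80 and Krt222. Of the junction and cornified-layer genes, plakoglobin (Jup), involucrin (Ivl), Dsc1, Dsc2, Dsc3, Dsg1a, Dsg1b, Dsg1c and Dsg4 were detected on no array. The highest intensity among the 51 probes that were never detected was 10.0.

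Per array, between 11 and 16 of the 74 probes were detected in Nd2-mutant and between 10 and 14 in control cultures, so the ranges overlapped. The lowest intensity that passed as detected was 10.48 to 12.07 on the Nd2-mutant and 12.7 to 13.6 on the control arrays, which is a lower bar on the Nd2-mutant arrays. The summed intensity of the 74 probes was 874, 2352, 742 and 603 in Nd2-mutant mice 28, 32, 34 and 35. In control mice 15, 16, 17 and 37 it was 2050, 1266, 1501 and 1042. Without Krt14 and Krt17 the sums ran from 488 to 899 and from 775 to 859, so most of the spread between cultures lay in these 2 genes. In all value lists that follow, the mice are in this order.

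**Figure D1:**
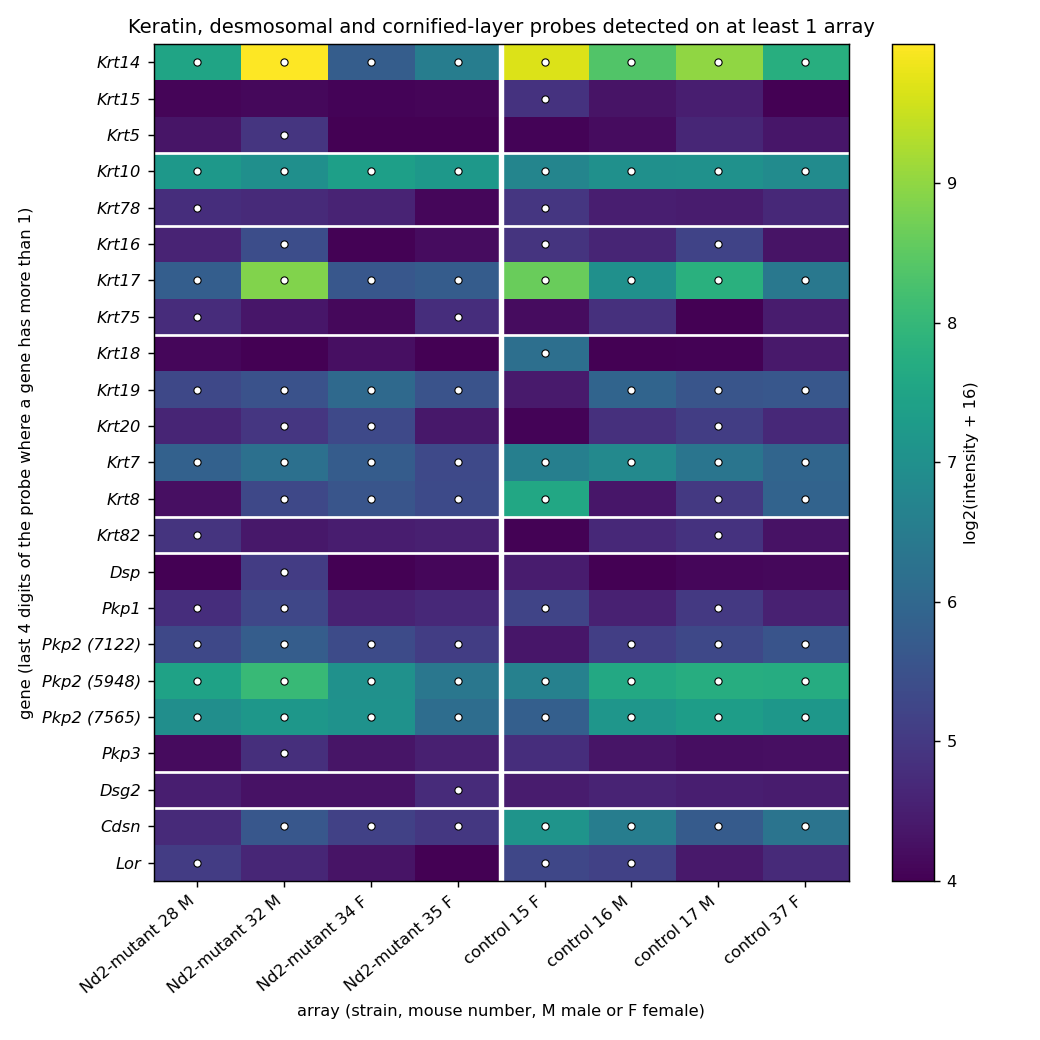
Heat map of log2(intensity + 16) for the 23 probes detected on at least 1 array (rows, ordered by role) on the 8 arrays (columns, with mouse number and sex), where a white dot marks a detected probe. Krt14 and Krt17 are brightest on the arrays of Nd2-mutant mouse 32 and control mouse 15, and Krt5, Dsp and Pkp3 were detected on the array of mouse 32 alone.

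Among the basal keratins, Krt14 was detected in every culture. Its intensity was 166, 1007, 38.3 and 77.9 in the Nd2-mutant and 812, 313, 498 and 199 in the control mice. The highest and the 3 lowest cultures were Nd2-mutant, and the groups overlapped. On the log2(intensity + 16) scale its values spanned 4.24 units, and 99.95% of the 10414 tested probes had a smaller standard deviation over the 8 arrays (Krt14 1.48, median of the tested probes 0.27). Krt5, the type II partner of Krt14, was detected only in mouse 32, at 14.5. Krt15, another basal and hair follicle bulge keratin, was detected only in control mouse 15, at 13.5.

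Among the suprabasal keratins, Krt10 was detected in every culture and varied little, with a standard deviation of 0.20 log2 units. Its intensity was 131, 111, 150.4 and 131 in Nd2-mutant and 90.9, 112, 116 and 103 in control mice. The Nd2-mutant mean was 131 ± 16.1 and the control mean 106 ± 11.04 (SD, n = 4), and the groups overlapped at the value of mouse 32. The Krt1 probe, listed on the array under the older symbol Krt2-1, was outside the symbol rule and was detected on no array. Krt78 was detected in mice 28 and 15, at 11.7 and 14.7.

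Among the stress and hair follicle sheath keratins, Krt17 followed the cultures with high Krt14. Its intensity was 39.8, 446, 33.6 and 37.3 in Nd2-mutant and 379, 112, 208 and 68.0 in control mice. Mouse 32 was again the highest, and the other 3 Nd2-mutant cultures lay below all 4 control cultures. Krt16 was detected in 3 cultures, mice 32, 15 and 17, at 26.9, 14.1 and 20.9, which were also the 3 cultures with the highest Krt14 and Krt17. Krt75, a keratin of the companion layer of the hair follicle, was detected by 1 of its 3 probes in mice 28 and 35, at 11.04 and 11.35.

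Krt14, Krt16 and Krt17 are type I keratins on chromosome 11. In the order of protein-coding genes in RefSeq, Krt15, Krt19, Krt9, Krt14, Krt16, Krt17 and Krt42 follow one another there. Of these neighbours, Krt9 and Krt42 were detected on no array, and Krt19 did not have the pattern of Krt14. The genes are closely related in sequence, the sequences of the probes were not used here, and the specificity of each probe was not tested.

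The relation between keratins over the 8 cultures was then computed. None of the 4 keratin pairs known to polymerise together (Krt5 and Krt14, Krt1 and Krt10, Krt8 and Krt18, Krt6a and Krt17) had both members detected on at least 6 arrays, so no value was computed for them. All 21 pairs among the 7 tested genes were examined instead, a family chosen after the values were seen. Krt14 and Krt17 ran together, with Pearson's r = 0.95 (exact permutation p = 0.000322, 0.00677 after Benjamini-Hochberg adjustment over the 21 pairs). Spearman's rho was 1 (exact permutation p = 4.96e-05, the smallest that 8 arrays can give, and 0.00104 adjusted), so the 8 cultures had the same order for both genes. Without mice 32 and 34, the arrays farthest from the median of Krt14, r was 0.97, and after centring each strain on its mean it was 0.94. Leaving out 1 culture at a time gave r between 0.93 and 0.98.

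No other pair had an adjusted p under 0.05. The next was Cdsn with Krt10, which ran in opposite directions at r = -0.87 (exact permutation p = 0.00533, adjusted 0.0560) and rho = -0.81 (exact permutation p = 0.0218, adjusted 0.110). Without mice 15 and 28 this r was -0.78, and with the strains centred it was -0.69. Krt10 with Krt14 gave r = -0.81 (exact permutation p = 0.0162, adjusted 0.113), rho = -0.76 (exact permutation p = 0.0368, adjusted 0.110) and r = -0.56 without mice 34 and 15.

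**Figure D2:**
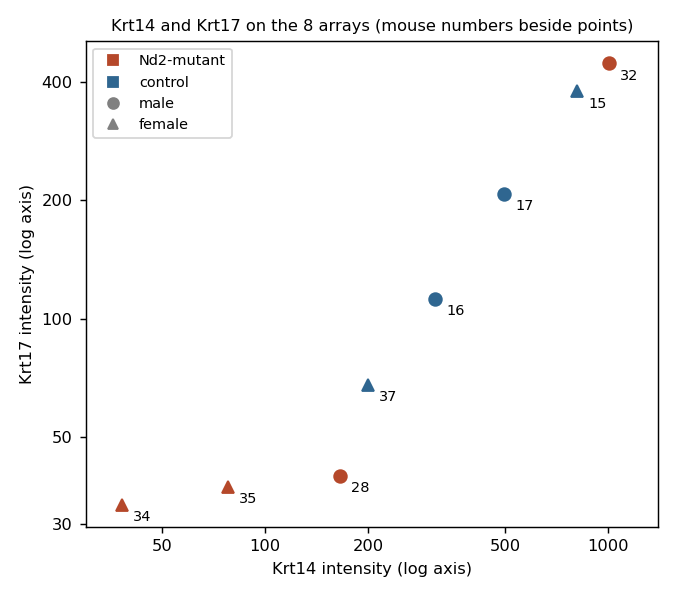
Krt17 intensity against Krt14 intensity on the 8 arrays, both on log axes, with the mouse number beside each point, colours for the strain and shapes for the sex. The points rise without exception from mouse 34 (38.3 and 33.6) to mouse 32 (1007 and 446), and both strains lie along the same course.

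Among the keratins of simple epithelia, Krt7 was detected in every culture. Its intensity was 41.8, 58.7, 38.0 and 23.8 in Nd2-mutant and 80.1, 97.9, 64.3 and 45.9 in control mice, with means of 40.6 ± 14.4 and 72.0 ± 22.2 (SD, n = 4). The groups overlapped in 1 place, since mouse 32 lay above control mouse 37. Krt19, also a hair follicle bulge keratin, was detected in 7 cultures, at 23.5, 29.7, 50.1 and 30.5 in Nd2-mutant and 5.54, 45.5, 31.7 and 33.2 in control mice. The value below detection was that of mouse 15.

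Krt8 and Krt18, partners in simple epithelia, were highest in control mouse 15. Krt8 was detected in 6 cultures, at 3.12, 23.6, 31.8 and 24.8 in Nd2-mutant and 178, 4.72, 16.04 and 44.3 in control mice, with mice 28 and 16 below detection. Krt18 was detected in mouse 15 alone, at 56.9, and was at most 5.42 in the other cultures. Neither passed the filter for the test. The endothelial markers of mouse 15 are given above and its keratinocyte markers below. The part of either cell type in its Krt8 and Krt18 values was not tested. Krt20, an intestinal and urothelial keratin, was detected in mice 32, 34 and 17, at 15.1, 23.9 and 18.0. Of the hair shaft keratins, Krt82 was detected by 1 of its 3 probes in mice 28 and 17, at 14.0 and 13.4.

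Of the desmosomal plaque proteins, plakophilin 2 (Pkp2), which is found in heart and simple epithelial desmosomes and has also been described at contacts of cultured mesenchymal cells, was detected by all 3 of its probes. Probe ILMN_2665948 read 159.5, 248, 115 and 66.8 in Nd2-mutant and 83.7, 179.9, 199 and 193 in control mice. Probe ILMN_2927565 read 109.7, 129, 117 and 55.1 against 40.2, 125, 146 and 128. Probe ILMN_2637122 read 23.5, 38.8, 25.1 and 17.8 against 4.68, 18.8, 23.5 and 31.2, the first control value below detection. On each probe the lowest control culture was mouse 15 and the lowest Nd2-mutant culture was mouse 35, and the groups overlapped.

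The other desmosomal genes were near or below detection. Pkp1, a plakophilin of stratified epithelia, was detected in mice 28, 32, 15 and 17, at 11.5, 22.9, 21.8 and 15.7. Desmoplakin (Dsp), which ties the plaque to the filaments, was detected in mouse 32 alone, at 17.3, and so was Pkp3, at 12.1. Of the desmosomal cadherins, 1 of the 3 probes of Dsg2 was detected in mouse 35 alone, at 10.6, and 14 of the 15 cadherin probes were detected nowhere.

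Of the cornified-layer genes, corneodesmosin (Cdsn), an adhesive protein of the desmosomes of the outermost epidermis, was detected by 1 of its 3 probes, ILMN_2796382, in 7 cultures. It read 10.3, 33.2, 19.5 and 15.3 in Nd2-mutant mice, the first of them below detection, and 122, 76.5, 36.7 and 62.6 in control mice. The groups did not overlap, though mouse 32 and control mouse 17 lay close together. The other Cdsn probes were detected on no array, with a highest value of 8.65. Loricrin (Lor), the main protein of the cornified envelope, was detected in mice 28, 15 and 16, at 17.7, 23.04 and 19.7.

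For the comparison between the strains, 9 probes of 7 genes passed the filter, which asked for detection on all 4 arrays of at least 1 strain. Since a probe could pass through the strain in which it was high, these 9 do not stand for all 74. Cdsn passed through the control strain alone, and Krt19 and Pkp2 probe ILMN_2637122 through the Nd2-mutant strain alone. None of the 9 had an adjusted p under 0.05 by limma with Benjamini-Hochberg adjustment over 10414 probes, where 0.00% of all tested probes did (0 probes). Of the 9, 2 had an unadjusted p under 0.05, Cdsn and Krt7, both lower in Nd2-mutant fibroblasts. The share over all tested probes was 7.63%, and 3.13% for lower values alone. The 9 differences had a median of -0.20 log2 units, against 0.00093 over all tested probes, with 6 probes lower and 3 higher in the Nd2-mutant cultures. This median was not stable: it was 0.08 without mouse 35, -0.47 without mouse 32 and -0.46 without mouse 15.

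Cdsn had the largest difference, with a mean intensity of 19.6 ± 9.83 in Nd2-mutant and 74.6 ± 35.9 in control cultures (SD, n = 4). The limma difference, Nd2-mutant minus control, was -1.30 ± 0.29 on the log2(intensity + 16) scale (SE; 95% interval -1.94 to -0.67; unadjusted p = 0.000968 and adjusted p = 0.639 by limma; exact permutation p = 0.0286, two-sided, the smallest that 4 against 4 arrays can give). It was the only 1 of the 9 probes whose strains did not overlap, which held for 4.37% of all tested probes. Cdsn entered the test only through the control strain, in which it was higher. This count and the interval and p-values of Cdsn are therefore descriptions, not evidence of a strain difference. Without mice 15 and 35, the arrays with the highest endothelial and macrophage markers, the difference was -1.02 ± 0.27.

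Krt7 differed by -0.64 ± 0.23 log2 units (95% interval -1.15 to -0.12; p = 0.0198, adjusted p = 0.639 by limma; exact permutation p = 0.0571). Krt10 had the opposite sign, at 0.27 ± 0.14 (95% interval -0.04 to 0.58; adjusted p = 0.639 by limma; exact permutation p = 0.0857). Neither difference passed the adjustment.

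Krt14 and Krt17 had lower mean log2 values in Nd2-mutant cultures, but with wide intervals. The Krt14 difference was -1.25 ± 0.77 (95% interval -2.96 to 0.47; adjusted p = 0.666 by limma; exact permutation p = 0.286). The Krt17 difference was -0.95 ± 0.71 (95% interval -2.52 to 0.62; adjusted p = 0.703 by limma; exact permutation p = 0.314). Single cultures moved both values in either direction. Without mouse 32 the differences were -2.10 ± 0.49 for Krt14 and -1.73 ± 0.44 for Krt17, with adjusted p = 0.673 and 0.695 by limma. Without mouse 34 the Krt14 difference was -0.68, and without mouse 15 the Krt17 difference was -0.56. Without mice 15 and 35 together they were -0.62 and -0.30.

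For Krt19 the difference was 0.21 ± 0.30 (95% interval -0.46 to 0.88; adjusted p = 0.840 by limma). It changed sign without mouse 15, to -0.11. The 3 Pkp2 probes differed in sign, with 0.29 ± 0.25 for ILMN_2637122, -0.20 ± 0.35 for ILMN_2665948 and -0.03 ± 0.34 for ILMN_2927565, and adjusted p between 0.738 and 0.985 by limma. Each of their 95% intervals included 0.

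**Figure D3:**
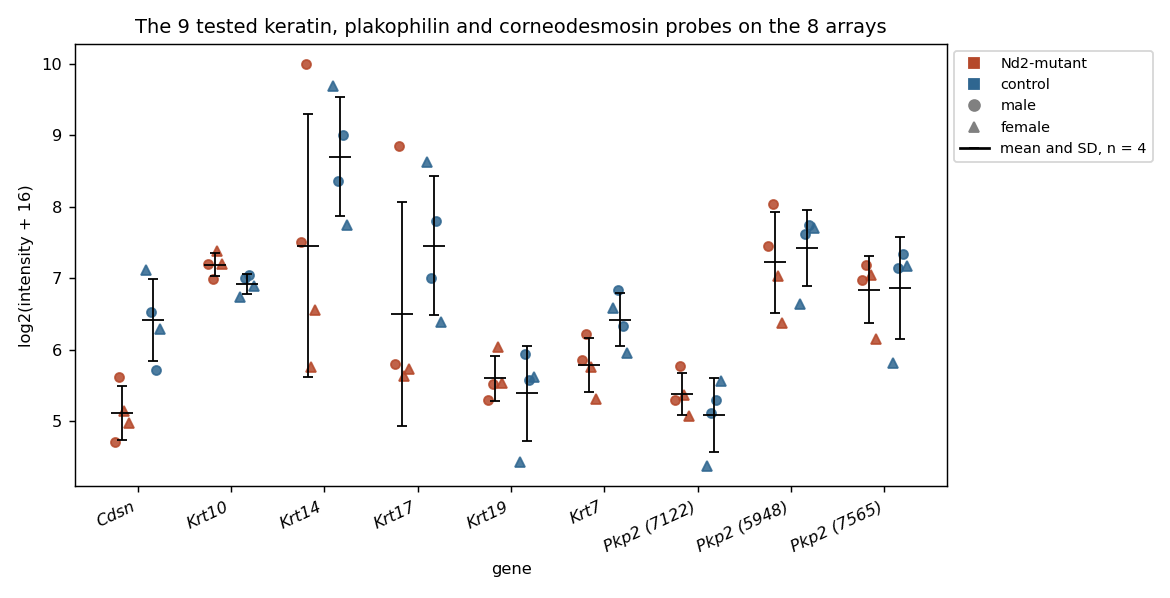
log2(intensity + 16) of the 9 tested probes on the 8 arrays, with circles for males, triangles for females, colours for the strains, and bars for the mean and SD of 4 arrays. Cdsn is the only probe on which the strains do not overlap, and Krt14 and Krt17 have the longest bars.

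The sexes were compared with strain as a term, since each strain held 2 males and 2 females. No probe of the 9 had an adjusted p under 0.05, and 0.0192% of all tested probes did. With an unadjusted p under 0.05 there was 1, where the share over all tested probes was 8.31%. This was Pkp2 probe ILMN_2665948, which read 197 ± 37.9 in males and 115 ± 55.9 in females (SD, n = 4), a difference of 0.78 ± 0.27 log2 units (95% interval 0.17 to 1.38; adjusted p = 0.519 by limma). On the log2 scale, 7 of the other 8 differences were above 0 and that of Cdsn was below it, with Krt10 at 0.0034 ± 0.15, and none of these 8 had an unadjusted p under 0.05.

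Krt14 was 1.28 ± 0.70 log2 units higher in the mean of males (95% interval -0.28 to 2.84; adjusted p = 0.668 by limma), and Krt17 0.77 ± 0.70 (95% interval -0.79 to 2.33; adjusted p = 0.783 by limma). With arrays weighted by quality, 2 of the 9 sex differences passed the adjustment, where 391 of all tested probes did (3.75%). These were Krt14 at 2.999 ± 0.58 (adjusted p = 0.0244 by limma) and the same Pkp2 probe at 0.92 ± 0.22 (adjusted p = 0.0463 by limma). Without control mouse 15, a female with high Krt14, and with equal weights, the Krt14 difference was 1.93 ± 0.58, with an adjusted p of 0.299 by limma.

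Whether the strain difference differed between the sexes was tested by the interaction term. None of the 9 probes had an adjusted p under 0.05 (smallest 0.99988 by limma), where 0.00960% of all tested probes did, and none had an unadjusted p under 0.05, where 1.77% did. Without mouse 28 the Krt14 term was 3.88 log2 units, and without mouse 37 it was 3.60. The Krt19 term was -1.71 without mouse 37. These fits were chosen after their values were seen, and each left a single mouse in a group of strain and sex. With all mice kept, the largest term was that of Krt14, at 2.63 ± 1.18 log2 units (95% interval -0.06 to 5.32; unadjusted p = 0.0542 by limma). The strain difference of Krt14 was 0.07 in males and -2.56 in females, with 2 mice of each strain behind each value. In females the control cultures (812 and 199) both lay above the Nd2-mutant cultures (38.3 and 77.9), and in males the groups overlapped.

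**Figure D4:**
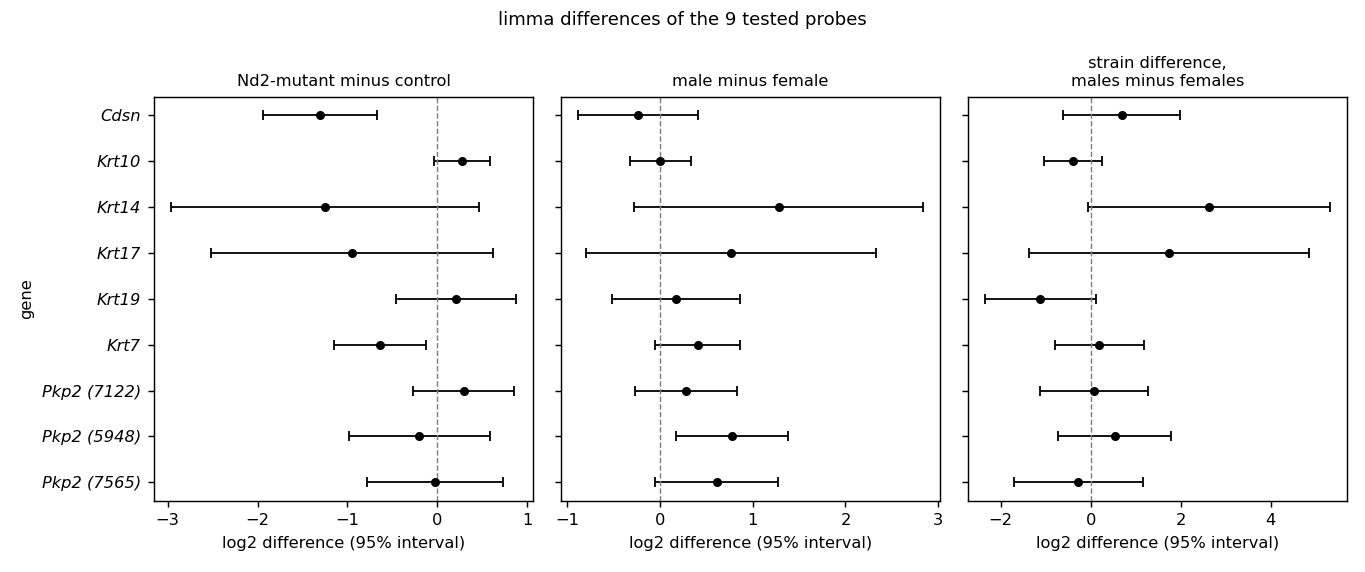
limma differences of the 9 tested probes in log2 units with their 95% intervals, for strain (left), sex (middle) and the interaction of strain and sex (right), each on its own horizontal scale. The strain intervals of Cdsn (-1.94 to -0.67) and Krt7 (-1.15 to -0.12) and the sex interval of Pkp2 probe ILMN_2665948 (0.17 to 1.38) lie off 0, before adjustment for the number of probes. Cdsn entered the test only through the control strain, in which it was higher.

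Other epithelial genes were examined from lists that were set with earlier results of these data known. Of 10 keratinocyte markers, 9 were on the array and 7 were detected somewhere. Sfn and the Krt1 probe were detected on no array, and Krt5, Krt15, Cdh1 and Trp63 on at most 4. The summed keratinocyte marker intensity was 375, 1267, 235 and 291 in Nd2-mutant and 1162, 538, 754 and 413 in control mice. Krt14 is itself in this sum, and the sum had the same order of cultures as Krt14 alone.

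E-cadherin (Cdh1), the adherens junction cadherin of epithelia, was detected only in mice 32 and 15, at 16.3 and 26.3, the same cultures that had the highest Krt14. Trp63, the transcription factor that maintains basal keratinocytes, was detected in mice 28, 32, 15 and 17, at 22.6, 19.3, 14.2 and 23.9. Type XVII collagen (Col17a1), a transmembrane collagen of hemidesmosomes, was brightest in mice 32 and 15 by its probe ILMN_2879995, at 43.5 and 48.7 against 12.1 to 25.3 in the other cultures. Lamb3, a chain of the laminin under basal keratinocytes, was also brightest there, at 34.5 and 35.5 against 3.40 to 13.5. Col17a1 and Lamb3 were chosen after their values were seen.

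Of 23 genes of epithelial adhesion and of basement membrane anchors, 21 were on the array, and 13 probes of 8 genes were tested. None had an adjusted p under 0.05, and the median was -0.24 log2 units. Over all tested probes, 3.13% were lower at an unadjusted p under 0.05. In this list 3 probes were lower at that threshold and none was higher. These were 2 probes of P-cadherin (Cdh3), a cadherin of basal and hair follicle keratinocytes, at -0.54 ± 0.23 and -0.61 ± 0.25, and a probe of integrin β4 (Itgb4), the hemidesmosome integrin, at -0.90 ± 0.28 (adjusted p = 0.639 by limma for each). That Itgb4 probe read 23.1, 57.7, 21.8 and 37.6 in Nd2-mutant and 137, 63.4, 60.4 and 59.3 in control mice, without overlap. Such a lack of overlap held for 4.37% of all tested probes. On the other tested Itgb4 probe, ILMN_2634689, the strains overlapped and the difference was -0.41 ± 0.24 (unadjusted p = 0.127 by limma).

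Of 40 other genes of the cornified envelope and of terminal differentiation, 35 were on the array, 9 were detected somewhere and 3 probes were tested. None had an unadjusted p under 0.05 (median -0.06). A single probe each of suprabasin (Sbsn) and of Sprr2a1, on the array as Sprr2a, was detected on all 8 arrays. The other Sbsn probe was detected on 2 arrays and the other Sprr2a probe on none. Krtdap, Tgm3, Lce1b and Flg2 were among the genes of this list detected on none. The genes named from this list were chosen after their values were seen. Of 21 hair keratin-associated proteins, 2 were detected, each on 1 array.

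Of 22 epidermal transcription factors and regulators, 8 probes of 5 genes were tested (median 0.12). An unadjusted p under 0.05 was found for 7.63% of all tested probes and for 1 of these 8. It was Hoxc13, a regulator of hair keratins, at -0.47 ± 0.15 (adjusted p = 0.639 by limma). Its values were 20.8, 11.2, 12.6 and 14.6 in Nd2-mutant and 24.9, 32.8, 21.6 and 27.4 in control mice, without overlap. This lack of overlap held for 4.37% of all tested probes. Of 11 adherens junction partners, 12 probes were tested and none had an unadjusted p under 0.05 (median -0.02).

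Of 11 other cytoplasmic intermediate filament genes, 3 probes were tested (median -0.63), and 2 of them were lower in Nd2-mutant cultures. An unadjusted p under 0.05 by limma was found for 1 of these 3, Nestin, and for 7.63% of all tested probes. Vimentin (Vim) read 4180, 3665, 4041 and 4607 in Nd2-mutant and 2068, 2865, 3320 and 4223 in control mice. Its lowest value was in mouse 15, and the groups overlapped. Nestin (Nes) had a difference of -0.88 ± 0.32 (unadjusted p = 0.0196, adjusted p = 0.639 by limma), with 26.6, 21.2, 24.4 and 45.3 in Nd2-mutant and 156, 45.9, 45.6 and 52.6 in control mice.

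Markers of other cell types also had unadjusted p under 0.05 for strain, in 1 of 5 tested endothelial probes, 3 of 9 of smooth muscle cells and pericytes, 2 of 2 from the melanocyte list and 2 of 12 of fibroblasts. The share over all tested probes was 7.63%. Emcn, an endothelial sialomucin, differed by -1.20 ± 0.27, and Myh11 and Actg2, of smooth muscle, by -1.06 ± 0.37 and -1.22 ± 0.39. Cspg4, of pericytes, differed by -0.54 ± 0.18. The 2 probes from the melanocyte list were both of Ednrb, the only gene of that list tested, at -0.60 ± 0.25 and -1.01 ± 0.33. Of the fibroblast markers, a probe each of decorin (Dcn) and lumican (Lum) had the opposite sign, at 0.82 ± 0.28 and 0.88 ± 0.31. All of these had an adjusted p of 0.639 by limma, like Cdsn and Krt7, and their part in the strain differences of these genes was not tested. Tested macrophage probes numbered 6, and none had an unadjusted p under 0.05. The defining macrophage genes Lyz2 and C1qb were highest in mouse 35, at 344 and 212.

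The summed endothelial markers ran from 158 to 314 in Nd2-mutant and from 279 to 874 in control cultures, those of melanocytes from 70.2 to 176 and from 96.0 to 263, and those of smooth muscle cells and pericytes from 24539 to 28354 and from 23158 to 37216. The endothelial receptor gene Kdr, the melanocyte genes Tyr, Dct, Tyrp1 and Mlana, and the mesothelial markers were detected on no array.

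**Figure D5:**
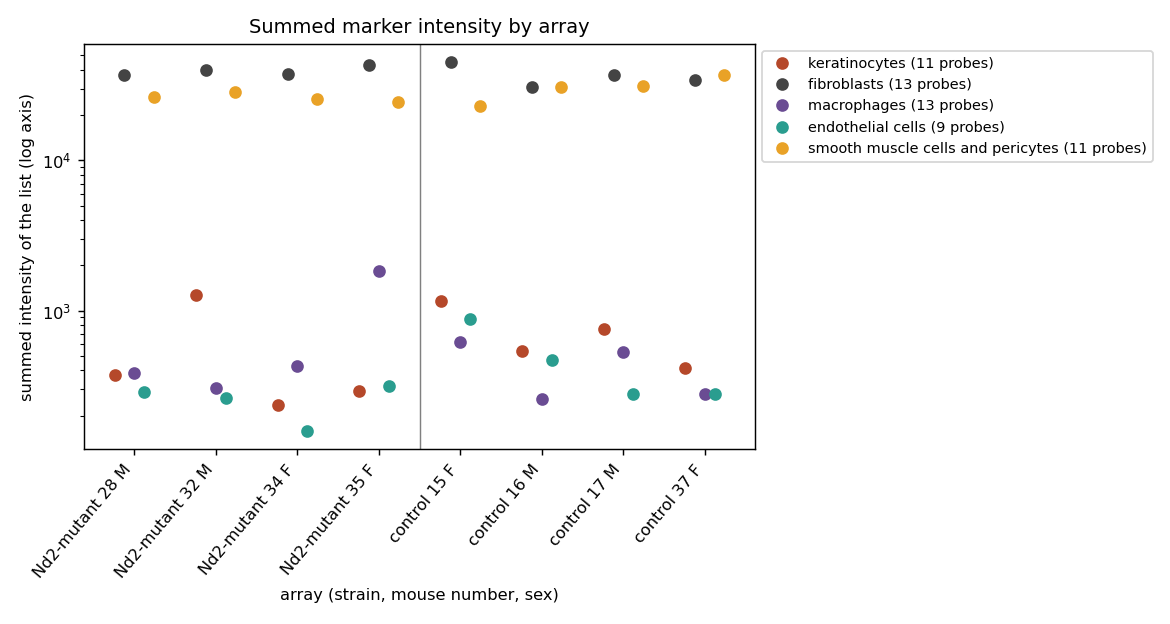
Summed intensity of 5 marker lists on each of the 8 arrays, on a log axis, with points set side by side within an array and the number of probes of each list in the legend. Fibroblast markers lie between 30734 and 44920 throughout, keratinocyte markers are highest in mice 32 and 15 (1267 and 1162), macrophage markers in mouse 35 (1843) and endothelial markers in mouse 15 (874).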

How the data were processed

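RNA from skin fibroblasts of 8 mice was hybridised to 1 array each. GenomeStudio was used by the authors for extraction, followed by quantile normalization and, where needed, background subtraction, and the deposited intensity values are linear. The deposited detection p-values compare each probe with negative controls. The tables named normalized and non-normalized hold the same bytes, so background correction, another normalization and a chip block were not run. No counts exist, and the number of arrays limits precision.

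Negative intensities were set to 0, 16 was added, and log2 values were computed from the deposited intensities. Probes detected (p under 0.01) on all 4 arrays of a strain were tested in limma 3.58.1 under R 4.3.3, tested on simulated data first, with Benjamini-Hochberg adjustment over 10414 probes of 8003 genes. limma is also named in the authors' methods. Exact permutation tests were two-sided. Every detected gene was named with values. Genes and lists were chosen with earlier results of these data known. A gene table (GRCm38.p6) served for names and order only, and the build behind the array is not given in the sources used here. Krt1, Pkp4, Dsg3 and Flg have no probe under the symbol rule and were not analysed here. Of 28 symbols beginning with Krt outside the rule, 4 were keratins, with 1 of 6 probes detected. The files hold no column of other samples.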

Additional observations from a re-analysis of the deposited data

Results flagged for a closer look

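In 50 sets of 4 values (the detected probes and the 2 summaries per array, each in both strains), 4 held a value whose distance from the nearest other value was a large share of the range of the set, a criterion that chance meets in about 1 in 20 sets. Krt17 was far higher in mouse 32 than in the other 3 Nd2-mutant mice, with 0.947 of the range between them. Desmoplakin (Dsp) was high in the same culture, at 0.896 of the range. The other pair were probes of Pkp2, ILMN_2665948 and ILMN_2927565, which were low in control mouse 15, at 0.879 and 0.874 of the range. Among the 9 tested keratin, desmosomal and cornified-layer probes, no strain difference differed between the sexes after adjustment.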

How the results depend on the processing

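None of the keratin, desmosomal and cornified-layer probes tested had an adjusted p under 0.05 for strain in any of 19 alternatives, and 6 of 9 kept their sign in every one that tested them, Cdsn, Krt7, Krt10, Krt14, Krt17 and Pkp2 probe ILMN_2637122. The number with an unadjusted p under 0.05 for strain was 2, and became 1 with probes detected on all 8 arrays, with array weights and without mice 15 and 35 together, 3 on linear values, and 4 of 74 with no detection filter, where 6.18% of all probes had one. The 3 on linear values were Cdsn, Krt7 and Krt10. Under Student's t-test, which the authors' methods name, run here on log2 values, the 2 were Cdsn and Krt10, without Krt7. The authors' own coefficients are on linear values, and their list of downregulated genes holds both Cdsn and Krt7. Leaving out 1 mouse gave 1 to 4, with 4 without mouse 32, where 6.59% of all tested probes had one, and 1 without mouse 35 or 16. For sex it was 1, and became 0 for linear intensities, 4 when detection on any 1 array sufficed, 2 with no filter, and 4 with array weights (20.7% of all tested probes), of which 2 passed the adjustment (3.75% of all). Leaving out 1 mouse gave 0 to 4, with 0 without mouse 32 or 35 and 4 without mouse 15 (9.30% of all). For the interaction it was 0, and became 1 with array weights (Krt19), with a variance trend (Krt14) or when detection on any 1 array sufficed (Krt14), and 2 with no filter (Krt75 and Krt78). None of these passed the adjustment. Leaving out 1 mouse left a single mouse in a group of strain and sex, so no interaction count is given for those fits. The median strain difference ran from -0.473 to 0.0847 on leaving out 1 mouse, and was -0.419 with probes detected on all 8 arrays, -0.365 with array weights, -0.0518 when any 1 array sufficed and 0 with no filter. With array weights the strain differences of Krt14 and Krt17 were -0.811 and -0.420. Krt19 changed sign without mice 15 and 35 (-0.0916) and without mouse 15 (-0.112, to 0.392 over all mice left out in turn). Pkp2 probe ILMN_2665948 changed sign without mouse 35 (0.0847, from a lowest of -0.473). Pkp2 probe ILMN_2927565 changed sign without mouse 35 (0.204, from a lowest of -0.377), 16 (0.0673), 17 (0.131) or 37 (0.0758). The cause was not tested. With detection p under 0.05, the median number of detected probes per array was 16 in place of 12.5. No paired analysis was possible because each mouse number occurs in 1 strain. The planned keratin pairs and the alternatives that need non-normalized values could not be run. The 4 mice in each strain limit the precision.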
